A study of Mus musculus with 24 samples.

Results

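The genes described here are 36 genes of the major histocompatibility complex (MHC) and of the pathways that load peptides onto MHC molecules, taken by symbol from a list. All 36 were found among the 54532 genes counted in left gastrocnemius muscle of 24 wild-type C57/BL6 mice, 4 in each of 6 groups, with 1 RNA-seq library per mouse. Control mice of each sex were sedentary and received a pair of 20 µl saline injections of pH 7.2 into that muscle, 5 days apart. Sedentary pain mice received injections of pH 5.0 on the same schedule, and their muscle was made to contract electrically for 6 min directly before the second one. Active pain mice had 8 weeks of running wheel access and then the same acid and contraction procedure. A time of 24 h is given for every library, and the age of the mice is not given in the sources used here. No group ran without the pain procedure, and no group had acid or contraction alone, so the parts of the procedure cannot be told apart. The members are 10 class I chains (9 heavy chains and beta-2 microglobulin), 7 genes of class I peptide supply and loading, 5 immunoproteasome and PA28 genes, 2 transactivators, 4 class II chain genes, 5 class II peptide editors and 3 endolysosomal processing genes.

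MHC class I molecules sit on nearly all nucleated cells and show peptides made by the proteasome in the cytosol. These peptides enter the endoplasmic reticulum through the TAP transporter and are fitted to the heavy chain by the loading complex. MHC class II molecules are found mainly on dendritic cells, macrophages and B cells, and show peptides of proteins that were taken up and cut by lysosomal proteases. Interferon gamma raises both sets, class I chiefly through the transactivator NLRC5 and class II through CIITA, and resting muscle fibres carry little class I and no class II protein.

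Values are CPM, read counts scaled to a common library size with TMM factors over all 24 libraries. Where 4 values follow each other they are those of replicates 1 to 4, which are different mice. Total counts ranged from 17612139 to 34039699 per library, so 1 count was worth less than 0.1 CPM. In female sedentary pain, replicates 3 and 4 stood apart from replicates 1 and 2 in 35 of the 36 members, and the members took 0.221%, 0.341%, 1.5% and 2.9% of all counts in the 4 libraries. In female controls replicates 3 and 4 lay above replicates 1 and 2 in 30 of 36 members, and in female active pain in 26. In males this order held for 5 members in controls, 6 in sedentary pain and 1 in active pain. In male active pain 22 members had replicates 1 and 2 above replicates 3 and 4. A number in the library names divides replicates 1 and 2 (20 or lower) from replicates 3 and 4 in every group, so results are also given within these subsets. The p-values set differences between groups against the spread between mice. That spread was estimated over all groups of a fit, although it differed between groups.

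Per kilobase of exon, the most abundant member in female controls was B2m at a mean of 229 CPM per kb, followed by H2-D1 at 76, H2-K1 at 51 and the class II invariant chain Cd74 at 48.7. The transactivators were near the bottom of that order, Nlrc5 at 0.291 and Ciita at 0.0865 CPM per kb. In female sedentary pain Cd74 stood at 1129 CPM per kb, close to B2m at 1194, and Ctss at 309.6 CPM per kb was near H2-Ab1 at 333. The spread between mice in that group was wide: the highest library exceeded the lowest by a median of 10.3 times over the 36 members, against 3.18 times in female controls (over 35, since H2-Oa was at 0 in a library there) and 1.88 times in male controls. Canx had the narrowest spread of that group at 1.28 times and H2-Ab1 the widest at 31.5 times.

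**Figure D1:**
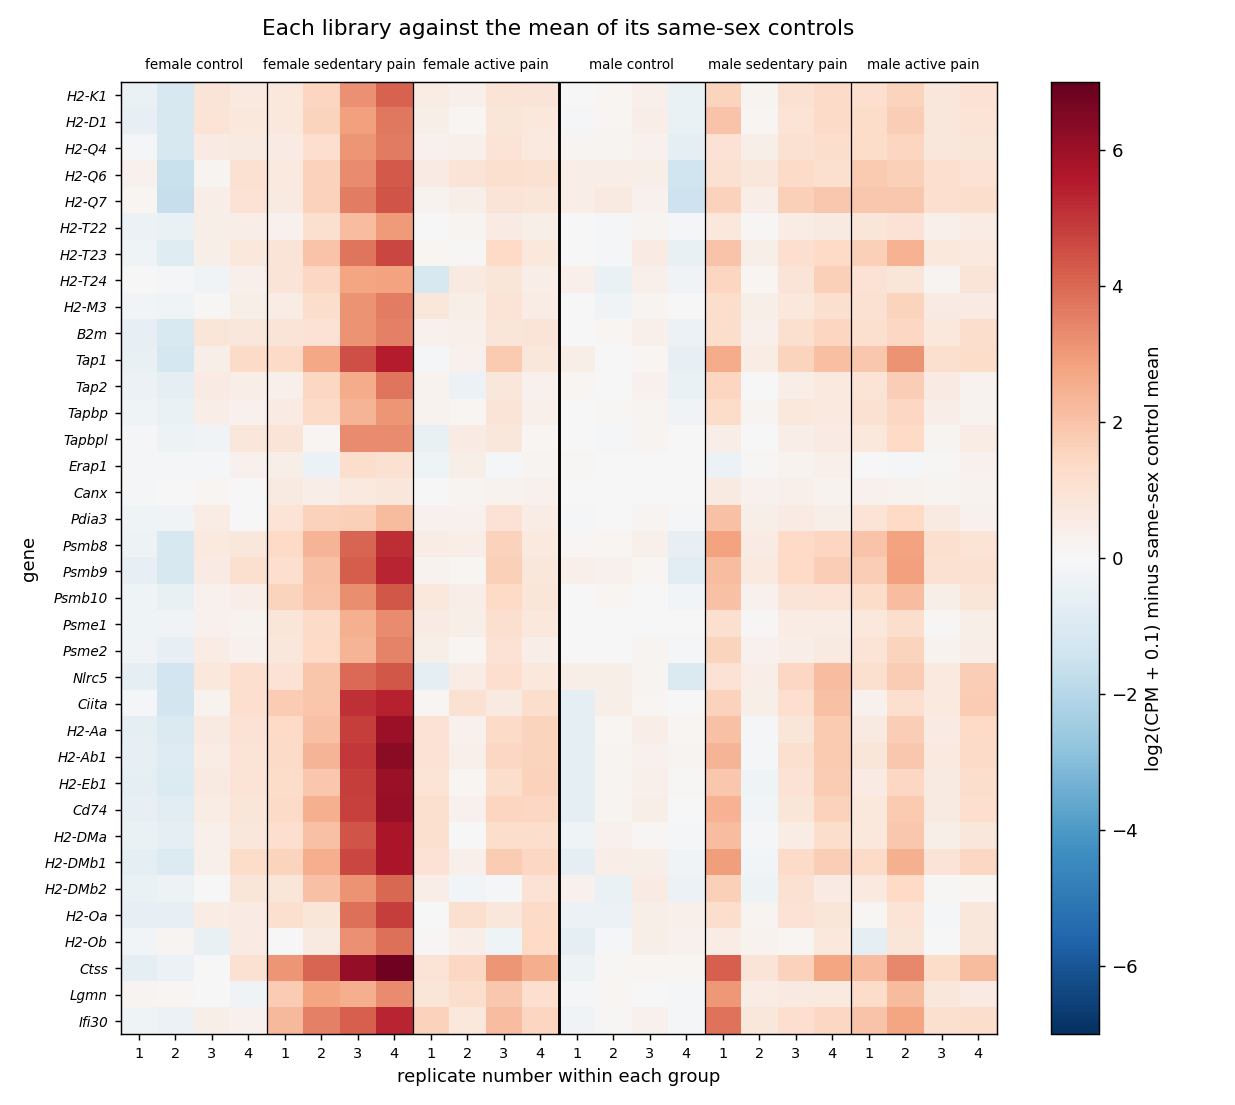
Difference of each library from the mean of its same-sex controls, as log2(CPM + 0.1), for 36 genes in rows and 24 libraries in columns, with the 6 groups side by side and replicates 1 to 4 in each. Replicates 3 and 4 of female sedentary pain carry the deepest red, and replicate 1 of male sedentary pain and replicate 2 of male active pain stand out among males.

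In female sedentary pain against control, 33 of the 34 members tested were higher (edgeR's quasi-likelihood test, Benjamini-Hochberg adjusted p under 0.05), none was lower, and Erap1 did not pass. The background was 19.6% of 14511 tested genes called higher and 13.9% called lower. These shares are also the background of the other gene lists in this comparison. H2-Oa and H2-Ob were filtered out in females for low counts. The median log2 fold change was 2.96 over the tested members and -0.02 over all tested genes. In 23 of the 34 members the 4 pain libraries all lay above the 4 control libraries, where 13.9% of all tested genes had all pain libraries above the controls. Within replicates 1 and 2 alone 15 members were higher (1.56% of all genes) with a median of 2.11. Within replicates 3 and 4 alone, where 36 were tested, all 36 were higher (16.2% of all genes) with a median of 3.31. With any single library left out between 31 and 35 members were higher, while the share of all genes called higher ran from 12.2% to 24.9%. With the split by library number as a batch term 33 members were higher (21% of all genes). With 1 surrogate variable, a hidden factor estimated from the same counts, 2 members were higher (0.4% of all genes) and the median was 0.23. Over all genes 2847 were higher and 2020 lower; with a correction for GC content and length, chosen after seeing the data, these were 2274 and 2906, the median of all genes moved to -0.14, and 34 members were higher.

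**Figure D2:**
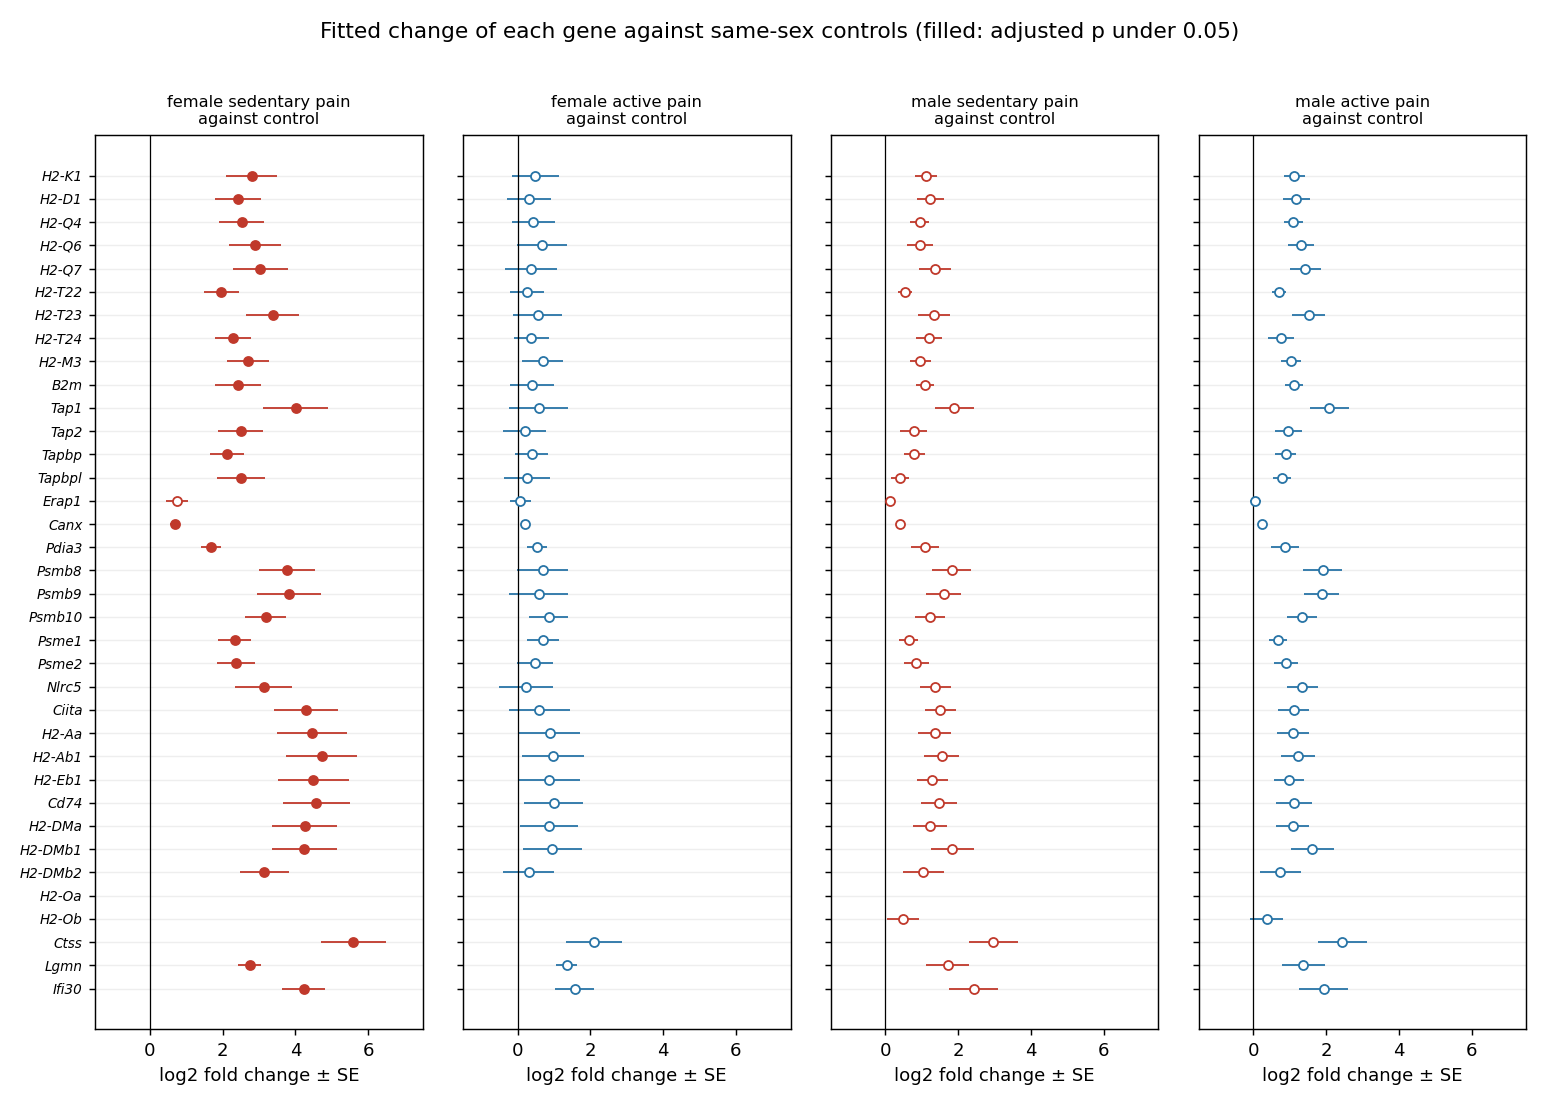
Fitted log2 fold change with its standard error for each gene in sedentary and active pain against same-sex controls, 1 panel per comparison; filled points passed an adjusted p of 0.05. Filled points occur only in the panel of female sedentary pain, where they run from 0.68 to 5.59; H2-Oa has no point and H2-Ob has points only in males because of low counts.

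The classical class I heavy chains H2-K1 and H2-D1 present peptides to CD8 T cells. H2-K1 had 94.2, 58.5, 237 and 210.5 CPM in female controls, 215, 369, 1189 and 2289 CPM in female sedentary pain and 184, 164, 252 and 242 CPM in female active pain. Replicate 1 of sedentary pain lay below replicate 3 of the controls, and replicates 3 and 4 lay far above every other library. The log2 fold change of sedentary pain against control was 2.79 ± 0.69 (SE), with adjusted p = 0.0127. H2-D1 had 111, 75.2, 322 and 275 CPM in controls and 272, 479.6, 1222 and 2126 CPM in sedentary pain, a log2 fold change of 2.42 ± 0.63, adjusted p = 0.0161. B2m, the light chain shared by all class I molecules, had 111, 81, 300.0 and 296 CPM in controls and 316, 336, 1486 and 1971 CPM in sedentary pain, groups that did not overlap (2.42 ± 0.64, adjusted p = 0.0166). All 10 class I chains passed, with log2 fold changes of 1.96 to 3.38 and a median of 2.61. Within replicates 1 and 2 alone none of the heavy chains passed, while B2m did. Without replicate 4 of sedentary pain H2-D1 and B2m did not pass.

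Among the nonclassical heavy chains, H2-T23 encodes Qa-1, the ligand of the NKG2A receptor of natural killer cells. H2-T23 had 13.5, 9.24, 22.8 and 28.4 CPM in female controls and 31.3, 67.2, 223 and 426 CPM in sedentary pain, with no overlap, and the largest change of the class I chains (3.38 ± 0.73, adjusted p = 0.00713). H2-M3, which presents formylated bacterial and mitochondrial peptides, had 1.7 to 2.91 CPM in controls and 3.12 to 27 CPM in sedentary pain (2.69 ± 0.58, adjusted p = 0.0071). H2-T24 had 1.65 to 2.51 and 3.73 to 14.5 CPM (2.29 ± 0.49, adjusted p = 0.00679). H2-Q4 rose by 2.52 ± 0.63, H2-Q6 by 2.89 ± 0.72, H2-Q7 by 3.03 ± 0.76 and H2-T22 by 1.96 ± 0.48 on the log2 scale, and in these 4 the groups overlapped. Some of these genes have close copies: 12% of the 100-base words of H2-Q7 transcripts, 10.8% of those of H2-Q6 and 8.86% of those of H2-T22 also occur in another gene, so their separate values are uncertain, while H2-T24, H2-M3 and B2m share none.

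Class I promoters can carry an interferon element and, closer to the start, a module of X2 and Y boxes. At that module NLRC5 is known to act with the RFX, CREB and NF-Y factors. The windows below show this module in 3 class I genes that rose together, as the 170 bases before the gene start in RefSeq (GRCm38.p6, read 5′ to 3′ on the gene's strand). They lie at chr17:34000348-34000517, minus strand for H2-K1, chr17:35262924-35263093, plus strand for H2-D1 and chr2:122147517-122147686, plus strand for B2m. Capitals mark an interferon element (GAA and GAAACT, or GAAA and GAAA, 2 letters apart on either strand), an X2 core (TGACG or TGATG) that lies 18 to 24 bases before a Y box (ATTGG), and that Y box.
H2-K1: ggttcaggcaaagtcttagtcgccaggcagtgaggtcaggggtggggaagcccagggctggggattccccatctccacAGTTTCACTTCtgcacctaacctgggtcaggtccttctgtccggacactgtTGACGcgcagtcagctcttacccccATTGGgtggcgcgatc
H2-D1: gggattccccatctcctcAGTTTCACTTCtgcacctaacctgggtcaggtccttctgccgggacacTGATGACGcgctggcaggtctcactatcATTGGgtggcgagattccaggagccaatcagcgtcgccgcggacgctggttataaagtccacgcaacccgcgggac
B2m: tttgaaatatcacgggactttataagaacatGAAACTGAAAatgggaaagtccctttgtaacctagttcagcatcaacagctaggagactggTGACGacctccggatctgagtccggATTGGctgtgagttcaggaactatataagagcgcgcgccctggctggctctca
The Y box followed an X2 core after 20 bases in H2-K1, H2-D1 and B2m, and H2-D1 holds a second core that overlaps the first and lies 23 bases before the Y box. These letters were chosen after the promoters had been read, on both strands of the 250 bases before the start. An X2 core and a Y box 18 to 24 bases apart occurred in 11 of the 29 members with an entry in the promoter table. Of its 32851 promoters, 0.691% held the pair. A member was counted if any of its entries matched, whereas the percentages are over single entries. The GAA and GAAACT element occurred in 5 members, H2-K1, H2-D1, H2-Q4, H2-Q6 and H2-Q7, and in 0.435% of promoters, and the GAAA and GAAA element in H2-T22, H2-T23, B2m and Ctss and in 2.98%. Of the class I chains, H2-T22 and H2-T23 held a Y box without the X2 and Y pair, and H2-M3 held the pair without either interferon element. Several of the matching genes are copies of each other, and a match is a description of letters, not evidence of binding.

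Of the 7 genes of peptide supply and loading, 6 rose and Erap1 did not pass, with a median of 2.13. Tap1, a subunit of the peptide transporter, had 4.59, 2.73, 8.85 and 16.6 CPM in female controls and 16.6, 42.9, 153 and 305 CPM in sedentary pain. Replicate 4 of the controls and replicate 1 of sedentary pain were level at 16.6 CPM, and the other 3 pain libraries lay above all controls. The log2 fold change was 4.01 ± 0.90, adjusted p = 0.0082. Its partner Tap2 changed by 2.5 ± 0.62, adjusted p = 0.0129, tapasin (Tapbp), which bridges TAP and the class I molecule, by 2.13 ± 0.47, adjusted p = 0.00773, and its relative Tapbpl, encoding TAPBPR, by 2.5 ± 0.66, adjusted p = 0.0165. The general endoplasmic reticulum proteins had smaller fold changes. Pdia3 (ERp57) spanned 47.6 to 81.7 CPM in controls and 114 to 264 CPM in sedentary pain (1.68 ± 0.28, adjusted p = 0.00293). Calnexin (Canx) spanned 66.9 to 82.5 and 101 to 130.3 CPM (0.68 ± 0.12, adjusted p = 0.00319), and neither gene overlapped between the groups. Erap1, the aminopeptidase that trims peptides, had 20.1, 20.2, 19 and 25.8 CPM in controls and 28.3, 15.8, 49.8 and 44.5 CPM in sedentary pain (0.74 ± 0.30, adjusted p = 0.0688). Replicate 2 of sedentary pain lay below every control, and the other 3 above. Exons of Erap1 overlap those of Cast on the opposite strand, so its counts may hold reads of Cast. Other members have such overlaps too, among them Pdia3 with Catsper2, Ciita with Dexi and H2-DMa with Brd2. Exons of Tapbp overlap those of Zbtb22 on the same strand, and the same limit holds for these genes.

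The immunoproteasome replaces the 3 catalytic subunits of the standard proteasome, Psmb5, Psmb6 and Psmb7, by Psmb8, Psmb9 and Psmb10. All 5 immunoproteasome and PA28 genes rose, with a median of 3.19. Psmb8 had 7.22, 4.17, 15.3 and 16.4 CPM in female controls and 24.9, 49.3, 161 and 339.8 CPM in sedentary pain, without overlap (3.77 ± 0.77, adjusted p = 0.00589). Psmb9 had 2.71, 1.83, 6.08 and 8.84 and 9.22, 16.8, 77.4 and 167 CPM, also without overlap although the closest libraries were 8.84 and 9.22 CPM (3.83 ± 0.88, adjusted p = 0.00922). Psmb10 had 13.3, 11.4, 20 and 22.7 and 48.2, 63.8, 154 and 333 CPM (3.19 ± 0.56, adjusted p = 0.00336). The PA28 activator genes Psme1 and Psme2, which open the proteasome core, changed by 2.33 ± 0.46 and 2.37 ± 0.51 (adjusted p = 0.00525 and 0.00732). Of the words of Psme2 transcripts, 18.4% also occur in another gene, most of all in Psme2b, so its value may include reads of a copy. Psmb9 and Tap1 run head to head on opposite strands of chromosome 17 with overlapping exons, and whether the counting used the strand is not given in the sources used here.

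Over all genes tested in female sedentary pain against control, 19.6% were higher and 13.9% lower. Of 9 genes of the standard proteasome and its other activators, 5 were higher, 1 was lower and 3 did not pass. Their median log2 fold change was 0.29. The 3 with the smallest p were Psma3 (0.34 ± 0.09, adjusted p = 0.0138), Psmc1 (0.39 ± 0.10, adjusted p = 0.0168) and the activator Psme4 (-0.61 ± 0.19, adjusted p = 0.0285), which fell. Per kilobase of exon, the ratio of Psmb8 to Psmb5 within a library was 0.0172, 0.0125, 0.0393 and 0.0443 in female controls and 0.0555, 0.0623, 0.411 and 0.494 in sedentary pain. The ratio of Psmb9 to Psmb6 was 0.00669, 0.00536, 0.0165 and 0.024 in controls and 0.0234, 0.0273, 0.202 and 0.328 in sedentary pain. Replicates 1 and 2 of sedentary pain were close to replicates 3 and 4 of the controls in both ratios, and replicates 3 and 4 of sedentary pain stood alone. Psmb10 to Psmb7 gave 0.106, 0.101, 0.168 and 0.189 in controls and 0.378, 0.415, 1.36 and 2.64 in sedentary pain, and did not overlap. In female active pain the 3 ratios ranged over 0.0235 to 0.0575, 0.0102 to 0.0284 and 0.184 to 0.303. These ratios were not tested and depend on the exon lengths used for each gene.

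**Figure D3:**
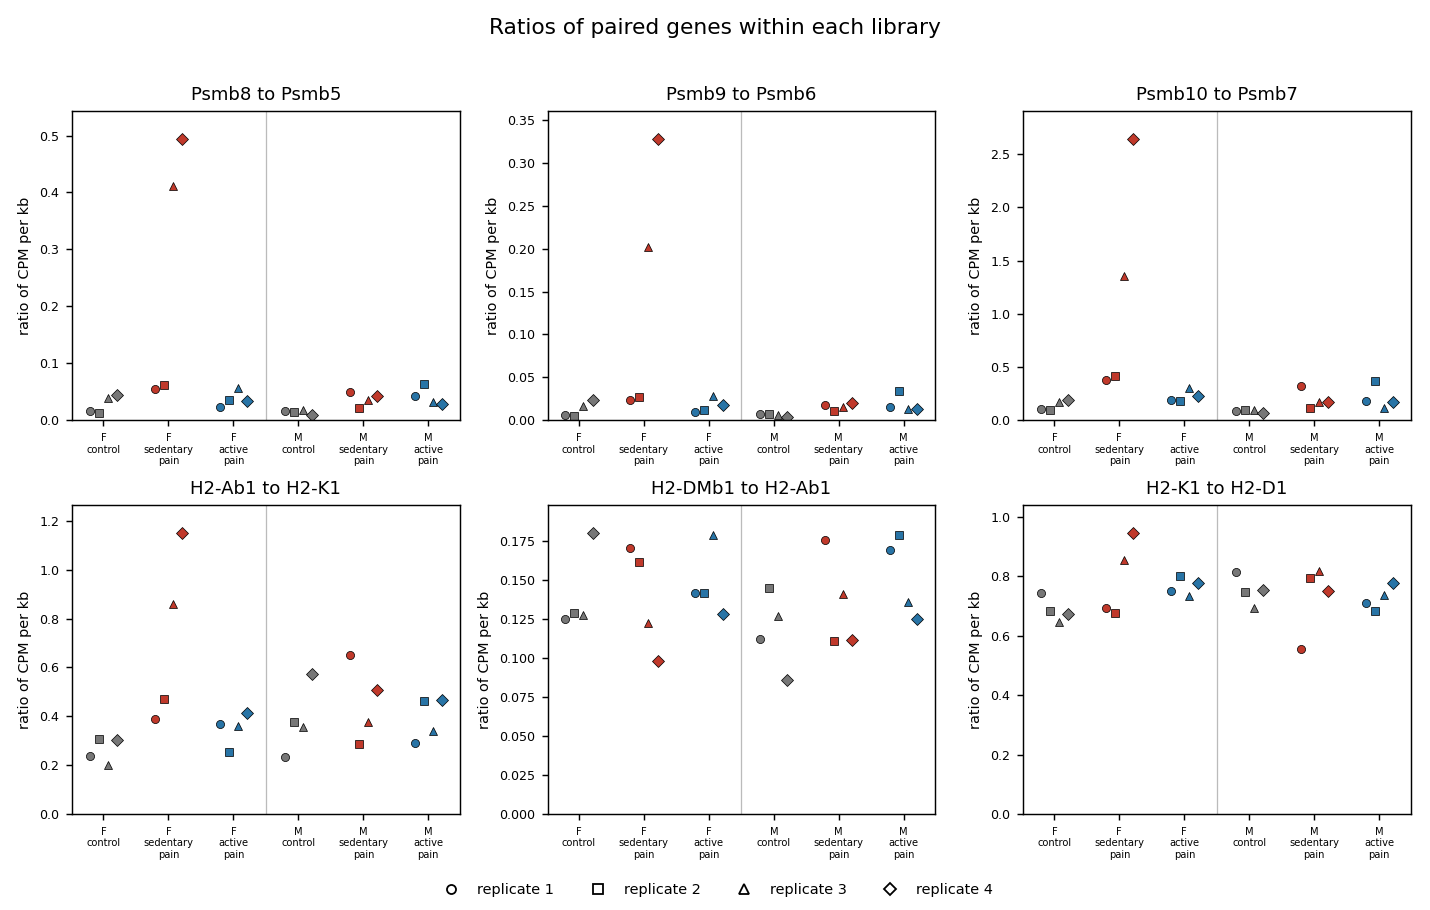
Ratios of CPM per kilobase of exon between paired genes in each library (linear axes from 0), with the 6 groups on the x axis and a symbol for each replicate; the upper row sets each immunoproteasome subunit against the standard subunit it replaces. The upper ratios and H2-Ab1 to H2-K1 are highest in replicates 3 and 4 of female sedentary pain, whereas H2-DMb1 to H2-Ab1 stays between 0.0863 and 0.18 in all 24 libraries.

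The transactivators were low but detected in every library. Nlrc5, the class I transactivator, had 1.23, 0.724, 3.39 and 4.54 CPM in female controls and 4.07, 7.66, 31.9 and 41.2 CPM in sedentary pain, where replicate 1 lay within the controls (3.13 ± 0.78, adjusted p = 0.0133). Ciita, the class II transactivator, had 0.613, 0.213, 0.808 and 1.66 CPM in controls, or 5 to 55 counts, and 2.6, 2.87, 26.4 and 32.3 CPM in sedentary pain, without overlap (4.29 ± 0.88, adjusted p = 0.00597). Of the 8 interferon gamma signalling genes tested, 4 were higher and 4 did not pass, with a median of 1.88; the smallest p were those of Irf8 (3.42 ± 0.73, adjusted p = 0.00685), Irf1 (3.71 ± 0.85, adjusted p = 0.00898) and Socs1 (4.10 ± 0.94, adjusted p = 0.00913). Ifng itself was too low to test in females. It had 0 to 0.0908 CPM in female controls, 0 to 5.25 CPM in sedentary pain and 0 to 0.0611 CPM in active pain. Of the 7 genes of the RFX complex and its partners, 1 was higher, 2 were lower and 4 did not pass. Over all tested genes 19.6% were higher and 13.9% lower in this comparison, so these counts are near the background. The 3 genes of this list with the smallest p were the NF-Y subunits Nfya (0.60 ± 0.19, adjusted p = 0.0307), Nfyb (-0.41 ± 0.13, adjusted p = 0.0365) and Nfyc (-0.42 ± 0.15, adjusted p = 0.0466).

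All 4 class II chain genes rose, with a median log2 fold change of 4.53, against 2.61 for the class I chains, a difference that was not tested. H2-Ab1, the beta chain of I-A, had 19.7, 15.6, 42 and 55.9 CPM in female controls, 73, 152, 894 and 2301 CPM in sedentary pain and 59.4, 36.8, 79.4 and 87.6 CPM in active pain. Every sedentary pain library was above every control, and replicate 4 was above replicate 1 of its own group by the widest factor of any member. The log2 fold change was 4.72 ± 0.98, adjusted p = 0.0061. H2-Aa, the alpha chain of I-A, had 18.6, 14.6, 46 and 58.9 CPM in controls and 77.6, 121, 857 and 1896 CPM in sedentary pain (4.46 ± 0.96, adjusted p = 0.00698). H2-Eb1, the beta chain of I-E, had 12.4 to 47 CPM in controls and 59.7 to 1604 CPM in sedentary pain (4.49 ± 0.98, adjusted p = 0.00745). The invariant chain Cd74, which blocks the class II groove until the lysosome, had 48.9, 41.1, 104 and 133 CPM in controls and 185, 404, 2031 and 4959 CPM in sedentary pain (4.57 ± 0.93, adjusted p = 0.00558). The median of the 4 chain genes was 2.66 within replicates 1 and 2.

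The windows of 3 class II genes show the same pair of boxes, at chr17:34287824-34287993, minus strand for H2-Aa, chr17:34305697-34305866, plus strand for H2-Eb1 and chr17:34153021-34153190, plus strand for H2-DMb1, with the X2 cores that lie 18 to 24 bases before the Y box, and the Y box itself, in capitals.
H2-Aa: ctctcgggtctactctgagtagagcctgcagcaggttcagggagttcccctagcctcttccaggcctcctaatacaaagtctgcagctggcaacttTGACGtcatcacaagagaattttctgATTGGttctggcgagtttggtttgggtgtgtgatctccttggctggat
H2-Eb1: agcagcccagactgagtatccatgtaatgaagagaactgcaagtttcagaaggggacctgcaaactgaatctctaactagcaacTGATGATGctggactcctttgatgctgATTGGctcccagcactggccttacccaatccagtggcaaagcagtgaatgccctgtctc
H2-DMb1: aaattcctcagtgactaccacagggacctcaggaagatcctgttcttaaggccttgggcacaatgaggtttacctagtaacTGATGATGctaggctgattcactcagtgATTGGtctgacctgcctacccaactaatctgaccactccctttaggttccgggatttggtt
The boxes were 21 bases apart in H2-Aa. H2-Eb1 and H2-DMb1 each hold 2 overlapping cores, 19 and 22 bases before the Y box in H2-Eb1 and 20 and 23 bases before it in H2-DMb1. The other members with such a pair were H2-Q4, H2-Q6, H2-Q7, H2-M3 and H2-DMb2; H2-DMa, H2-Oa and H2-Ob have an entry without the pair, and H2-Ab1 and Cd74 were not analysed here. A Y box alone was common, in 22 of the 29 members and 33.8% of all promoters.

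The peptide editors H2-DMa and H2-DMb1 form the DM molecule that exchanges the invariant chain fragment for antigen peptides. H2-DMa had 2.76, 2.39, 5.08 and 6.96 CPM in female controls and 8.92, 16.8, 84.4 and 209.8 CPM in sedentary pain (4.25 ± 0.89, adjusted p = 0.00623). H2-DMb1 had 1.62, 1.32, 3.5 and 6.6 and 8.17, 16.1, 71.9 and 148 CPM (4.25 ± 0.88, adjusted p = 0.00619), and its copy H2-DMb2, of whose words 10.3% occur in another gene, most of all in H2-DMb1, 0.219 to 0.696 and 0.715 to 7.14 CPM (3.15 ± 0.67, adjusted p = 0.00673). None of these 3 groups of libraries overlapped with the controls. H2-Oa and H2-Ob form DO, an inhibitor of DM typical of B cells. H2-Oa had 0 to 4 counts in female controls and 3 to 125 counts in sedentary pain, and H2-Ob 3 to 12 and 6 to 130 counts. With no filter on low counts all 36 members could be tested, and 35 were higher (10.2% of all genes).

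All 3 endolysosomal genes rose, and in each of them the sedentary pain libraries all lay above the controls. Ctss encodes cathepsin S, the protease that removes the invariant chain, and had 4.94, 5.88, 8.19 and 16.7 CPM in female controls, 69.6, 134, 569 and 909.6 CPM in sedentary pain and 15.6, 21.5, 69 and 47.5 CPM in active pain. Its fold change was the largest of the 34 members tested (5.59 ± 0.90, adjusted p = 0.00276). Ifi30 (GILT), which reduces disulfide bonds of antigens, had 5.03, 4.64, 8.42 and 7.75 and 30, 74.4, 116 and 253 CPM (4.23 ± 0.60, adjusted p = 0.0026). Lgmn (legumain, an asparaginyl endopeptidase) had 39.9, 37.8, 33.9 and 29.4 and 122, 241, 202 and 351 CPM (2.74 ± 0.31, adjusted p = 0.00225). Lgmn was the member in which replicate 2 of sedentary pain exceeded replicate 3, and in which female control replicates 1 and 2 were the higher ones. Of 9 tested genes of class II trafficking and other proteases, 7 were higher and 2 did not pass; Ctsz (2.84 ± 0.53, adjusted p = 0.00425), Ctsh (2.94 ± 0.58, adjusted p = 0.00501) and Marchf1 (3.87 ± 0.79, adjusted p = 0.00584), a ligase that removes class II from the surface, had the smallest p.

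**Figure D4:**
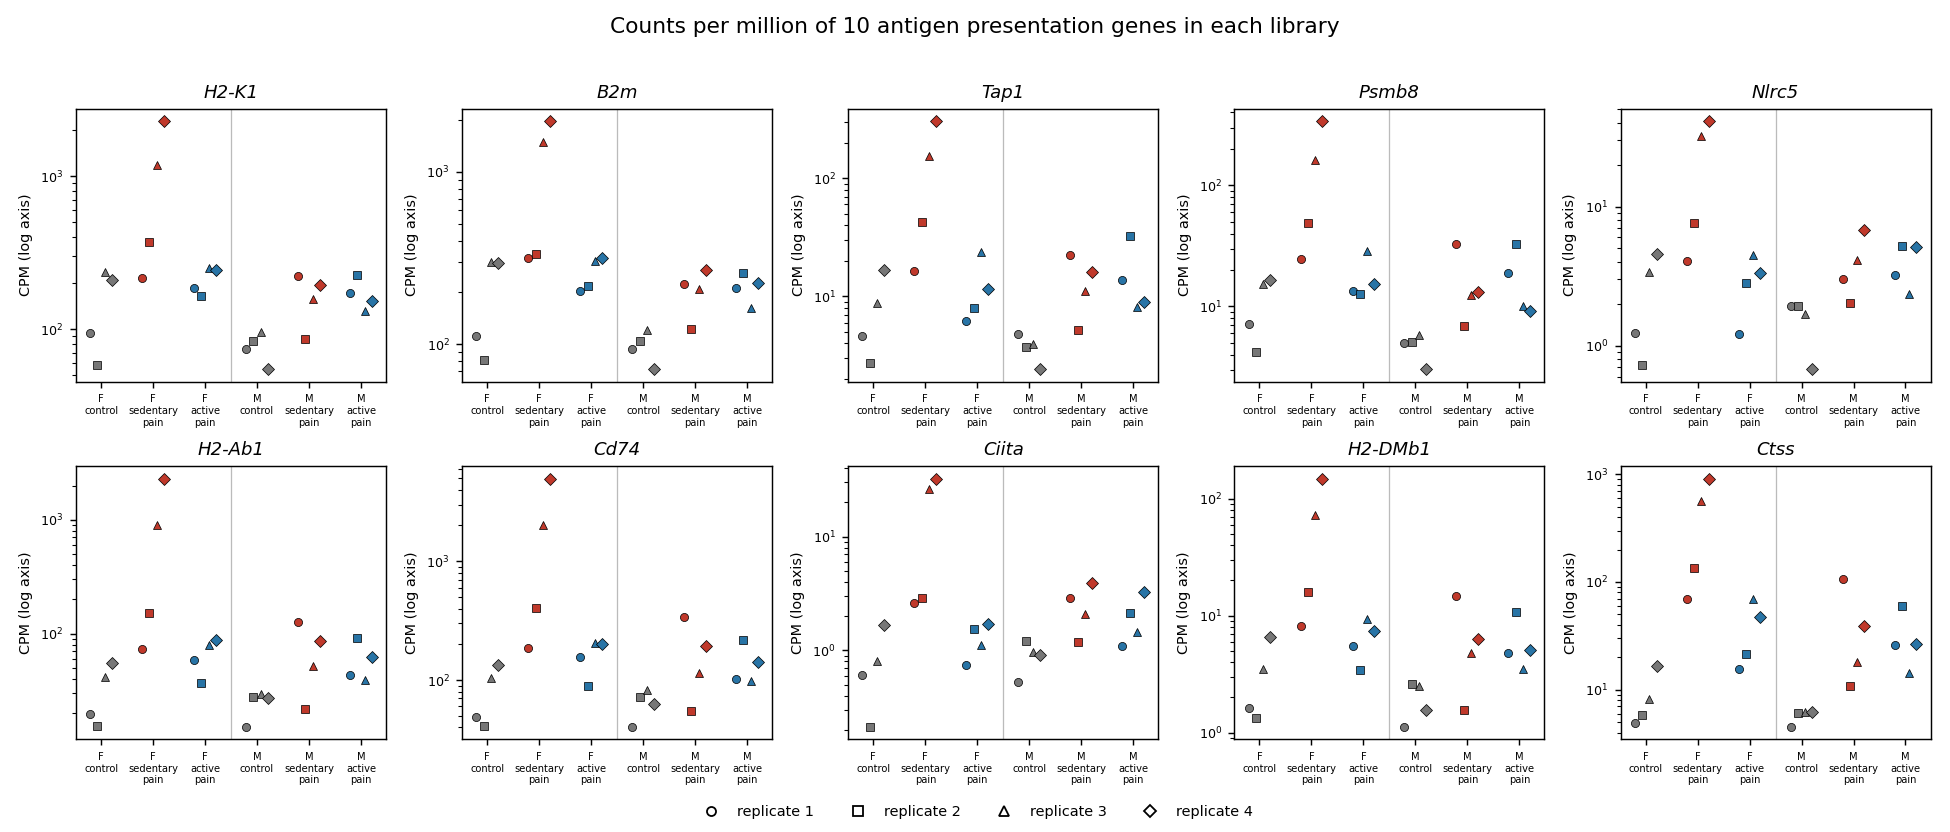
CPM of 10 genes in each library on logarithmic axes, with the 6 groups on the x axis and a symbol for each replicate. In the female sedentary pain group replicates 3 and 4 are the highest libraries of every panel, and for H2-K1, Tap1 and Nlrc5 replicate 1 falls within the range of the controls.

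Other genes linked to presentation moved in part with the members in female sedentary pain. All 6 tested costimulatory and adhesion genes were higher, with a median log2 fold change of 3.26, led by Cd40 (4.95 ± 0.85, adjusted p = 0.00316), Icam1 (3.39 ± 0.66, adjusted p = 0.00486) and Cd86 (3.13 ± 0.65, adjusted p = 0.006), receptors and ligands through which antigen presenting cells engage T cells. Of 6 tested class I like genes and chaperones outside the members, 1 was higher, 1 was lower and 4 did not pass. Over all tested genes 19.6% were higher and 13.9% lower, so these counts are near the background. Calreticulin (Calr), a part of the loading complex, changed by 1.12 ± 0.16, adjusted p = 0.0026. Mr1, which presents vitamin B metabolites, fell from 23.2 ± 1.31 CPM (SD, n = 4) to 11.8 ± 4.95 CPM (-0.94 ± 0.28, adjusted p = 0.025), and H2-Q10, a secreted class I chain, had -2.87 ± 1.15, adjusted p = 0.0708.

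Markers of leukocytes moved with these genes. All 12 macrophage and monocyte markers tested were higher in female sedentary pain, and their summed level was 104, 106, 176 and 223 CPM in female controls, 503, 792, 3938 and 5683 CPM in sedentary pain and 248, 303, 497 and 465 CPM in active pain. Ptprc (CD45), the common leukocyte antigen, had 1.84, 2, 2.88 and 5.36, 12.5, 16.4, 126 and 119 and 3.08, 6.85, 12.8 and 9.72 CPM. The 9 T and natural killer cell markers summed to 0.341 to 2.69 CPM in female controls and 3.61, 5.07, 54.1 and 92 CPM in sedentary pain, with up to 6 of them at 0 in a control library, among them Cd3e, Cd8a and Nkg7, and none at 0 in sedentary pain. The 9 dendritic cell markers summed to 7.46 to 9.99 and 9.53 to 53.9 CPM, of which 4 of 7 tested were higher. In female active pain the T and natural killer cell markers summed to 1.12 to 1.91 CPM and the dendritic cell markers to 6.33 to 13.3 CPM. Of B cell genes, Cd79a ranged over 0.0438 to 0.424 CPM in female controls and 0.264 to 2.79 CPM in sedentary pain, and Cd79b over 0.0438 to 0.484 and 0.301 to 6.23 CPM. Ms4a1 ranged over 0 to 0.121 and 0 to 0.889 CPM and Pax5 over 0 to 0.151 and 0 to 0.404 CPM. The 6 neutrophil markers had another order, with 20.9, 243, 36.6 and 54.5 CPM in sedentary pain and the peak in replicate 2 rather than replicates 3 and 4. The 6 endothelial markers summed to 190.2 to 218 CPM in controls and 156 to 169.9 CPM in sedentary pain, and the 7 muscle fibre markers to 124022 to 194192 and 80511 to 160322 CPM, and none of these was at 0 in any library. The part of these markers in the members' changes was not tested, and in whole muscle more cells of a type and more RNA per cell cannot be told apart.

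**Figure D5:**
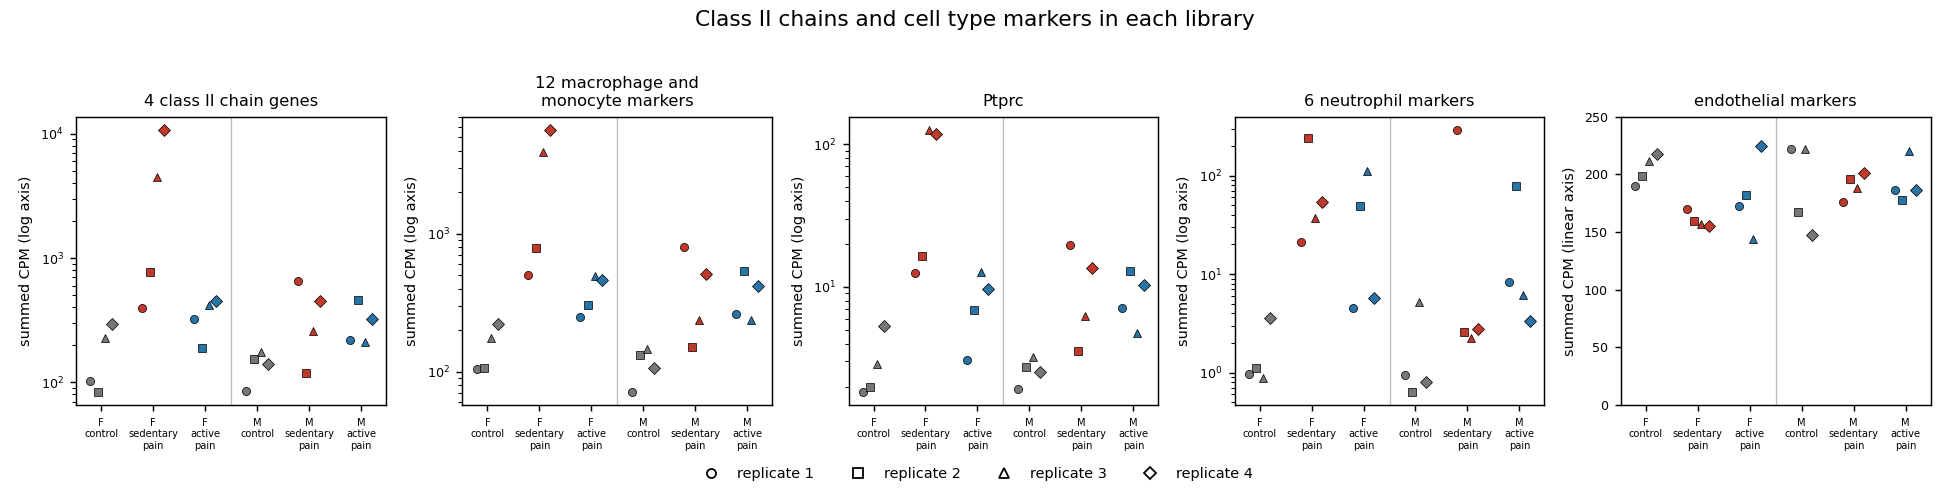
Summed CPM of the 4 class II chain genes and of marker lists in each library, with the 6 groups on the x axis and a symbol for each replicate; the first 4 panels have logarithmic axes and the endothelial panel a linear axis from 0. Class II chains, macrophage markers and Ptprc peak in replicates 3 and 4 of female sedentary pain, neutrophil markers in replicate 1 of male sedentary pain and replicate 2 of female sedentary pain, and endothelial markers lie between 144 and 224 CPM throughout.

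Within a library, the ratio of the I-A chains H2-Aa and H2-Ab1, per kilobase, was 0.632 to 0.741 in female controls and 0.537 to 0.718 in sedentary pain. H2-DMb1 to H2-Ab1 was 0.125 to 0.18 and 0.0982 to 0.171. Between the classes the balance differed: H2-Ab1 to H2-K1 was 0.24, 0.306, 0.203 and 0.304 in female controls and 0.388, 0.471, 0.861 and 1.15 in sedentary pain, groups that did not overlap, and Cd74 to B2m was 0.177 to 0.26 and 0.299 to 1.29. Against Ptprc, H2-Ab1 had 55.7 to 104 in controls and 41.6 to 138 in sedentary pain, overlapping ranges, whereas H2-K1 had 182 to 512 and 58.6 to 140.3, ranges that did not overlap, with the lower ratios in sedentary pain. Ctss to H2-Ab1 was 0.369 to 0.711 in controls and 0.748 to 1.8 in sedentary pain. No ratio was tested.

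In female active pain against control 0 of 34 members passed, as did 0% of the 14511 genes. All 34 fitted changes were positive, as were 50.4% over all genes, with a median of 0.57 against 0.00. Of the members 3 were higher at an unadjusted p under 0.05, where 3.78% of all genes were, and 3 had all active pain libraries above the controls (Psme1, Lgmn and Ifi30), where 3.92% of all genes did. The 3 at an unadjusted p under 0.05 were the endolysosomal genes. Lgmn had 63.7, 82.8, 132 and 78.9 CPM in active pain, above all controls (1.35 ± 0.30, adjusted p = 0.565). Ifi30 had 19.6, 10.5, 28.3 and 18 CPM, also above all controls (1.57 ± 0.54, adjusted p = 0.603), and Ctss overlapped (2.1 ± 0.77, adjusted p = 0.609). With DESeq2 1 member was higher, as were 0.579% of all genes. The class I chains had a median of 0.42, and H2-K1 with 184, 164, 252 and 242 CPM lay within or just above the span of the controls.

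Active pain against sedentary pain in females uses the same sedentary pain libraries as above. The macrophage and monocyte markers and the T and natural killer cell markers summed to less in every active pain library than in any sedentary pain library. Ptprc and the sums of dendritic cell, B cell and neutrophil markers overlapped, and the part of these markers was not tested. Here 31 of 34 members were lower in active pain, where 9.41% of all tested genes were called lower, and H2-Q6 (adjusted p = 0.0587), B2m (adjusted p = 0.0556) and Erap1 (adjusted p = 0.143) did not pass. The median was -2.32 over the members and 0.01 over all genes. The largest differences were in H2-Ab1 (-3.74 ± 0.93, adjusted p = 0.033), Ciita (-3.69 ± 0.85, adjusted p = 0.0328) and H2-Eb1 (-3.63 ± 0.94, adjusted p = 0.0348), and the smallest of those that passed in Canx (-0.48 ± 0.12, adjusted p = 0.033). The groups did not overlap in 6 members, H2-T24, Canx, Psmb10, Ciita, Ctss and Ifi30, where 5.73% of all genes had active pain wholly below. In Cd74, for example, replicate 1 of sedentary pain had 185 CPM and active pain 156, 88.6, 204 and 200.3 CPM. The calls were close to the threshold, with adjusted p from 0.0328 to 0.0482. The count was 0 without replicate 3 or 4 of sedentary pain or replicate 1, 2 or 4 of active pain, 0 when only these 2 groups were fitted, 1 with no filter on low counts (0.591% of all genes), and 0 within replicates 1 and 2, where the median was -1.08. With 1 surrogate variable it was 0 and the median turned to 0.045, with 20 of the 34 fitted changes positive. The share of all genes called lower in the fits with a count of 0 is not given here, so those counts have no background beside them. With the split by library number as a batch term the count was 33 of 34 tested (13% of all genes). Within replicates 3 and 4 it was 35 of 36 tested (13.2% of all genes). Of the pathway lists, 5 of 6 costimulatory genes, 4 of 9 trafficking genes and 3 of 8 interferon gamma signalling genes were lower, while 0 of 9 standard proteasome genes passed. Leading these lists were Cd40 (-3.61 ± 0.78, adjusted p = 0.0328), Ctsz (-2.22 ± 0.52, adjusted p = 0.0328) and Socs1 (-4.00 ± 0.93, adjusted p = 0.0328).

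In males 0 of 35 members passed in sedentary pain against control, as did 0% of the 14404 genes tested. All 35 fitted changes were positive, as were 49% over all genes, with a median of 1.23 against -0.01. At an unadjusted p under 0.05, 30 members and 7.46% of all genes were higher. The groups did not overlap in 16 members, and 4.48% of all genes had all pain libraries above the controls. H2-K1 had 74.4, 83.9, 96.2 and 54.7 CPM in male controls, 223, 86.9, 158 and 194 CPM in sedentary pain and 172, 225, 131 and 153 CPM in active pain. Replicate 2 of sedentary pain lay among the controls and the other 3 above them (1.12 ± 0.29, adjusted p = 0.296). B2m had 93.6, 105, 122 and 71.8 CPM in controls and 223, 123, 208 and 271 CPM in sedentary pain, just apart at 122 and 123 CPM (1.09 ± 0.25, adjusted p = 0.296). Psmb8 had 5, 5.09, 5.87 and 3.03 and 32.9, 6.93, 12.5 and 13.2 CPM (1.82 ± 0.53, adjusted p = 0.311). H2-Ab1 had 15.2, 27.6, 29.9 and 27.4 and 127, 21.7, 52 and 85.9 CPM, overlapping through replicate 2 (1.55 ± 0.48, adjusted p = 0.327). Cd74 had 40.4, 72.5, 82.7 and 62.3 and 339, 54.6, 114 and 194 CPM (1.48 ± 0.49, adjusted p = 0.359).

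Within male sedentary pain replicate 1 was the highest library for 26 members and replicate 2 the lowest for 32. Among the endolysosomal genes, Ctss had 107, 10.8, 18 and 38.8 CPM against 4.51 to 6.2 in controls (2.97 ± 0.68, adjusted p = 0.296), Lgmn 226, 40.3, 43.2 and 44.5 CPM against 26.6 to 30.7 (1.71 ± 0.59, adjusted p = 0.39), and Ifi30 73.8, 8.85, 11.7 and 14.3 CPM against 4.37 to 6.31 (2.43 ± 0.67, adjusted p = 0.299). Without replicate 1 their median log2 fold change was 1.15 in place of 2.43. The transactivators followed another order, with Nlrc5 at 3.04, 2.02, 4.14 and 6.77 CPM and Ciita at 2.88, 1.2, 2.09 and 3.94 CPM, highest in replicate 4. The summed macrophage markers were 801, 149.5, 238 and 507 CPM in male sedentary pain against 71.3 to 147 in male controls, Ptprc was 19.7, 3.55, 6.28 and 13.5 against 1.92 to 3.22 CPM, and the neutrophil markers reached 292 CPM in replicate 1 with at most 2.75 CPM in the other 3. The T and natural killer cell markers summed to 0.751 to 3.01 CPM, against 0.425 to 0.71 CPM in male controls and 0.896 to 2.39 CPM in male active pain. The part of all these markers in the members' values was not tested.

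Male active pain against control also gave 0 of 35 members and 0% of all genes. All 35 fitted changes were positive, where 49.8% over all genes were, with a median of 1.12. At an unadjusted p under 0.05, 31 members and 5.26% of all genes were higher. The groups did not overlap in 28 members, where 7.31% of all genes had all pain libraries above the controls. Replicate 2 was the highest library for 30 members. In male active pain the summed macrophage markers were 262, 538, 236 and 419 CPM, Ptprc 7.17, 13, 4.76 and 10.3 CPM and the neutrophil markers 8.21, 77.7, 6.13 and 3.35 CPM, against 71.3 to 147, 1.92 to 3.22 and 0.637 to 5.23 CPM in male controls, and their part in the result was not tested. Tap1 had 4.83, 3.75, 3.92 and 2.42 CPM in male controls and 13.9, 32.7, 8.06 and 8.88 CPM in active pain, all above the controls (2.1 ± 0.53, adjusted p = 0.465). H2-D1 had 80.3, 98.7, 122 and 63.7 and 213, 289, 156 and 172 CPM (1.19 ± 0.37, adjusted p = 0.478). B2m had 213, 259.6, 162 and 227 CPM (1.13 ± 0.25, adjusted p = 0.465). H2-Ab1 had 43.5, 91.2, 39 and 62.4 CPM (1.23 ± 0.47, adjusted p = 0.614) and Ctss 26, 59.3, 14.2 and 26.4 CPM (2.45 ± 0.67, adjusted p = 0.469). With DESeq2 on the same genes 10 members were higher than in controls in sedentary pain (1.81% of all genes) and 9 in active pain (0.812% of all genes). The members overlapping with controls in active pain were H2-T24, Tap2, Tapbpl, Erap1, Ciita, H2-DMb2 and H2-Ob. Both comparisons share the 4 male controls.

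Between male active and sedentary pain no member passed. The median was -0.03, with 17 of 35 fitted changes positive (39.2% over all genes), no member wholly above or below (0.701% of all genes), 0 members with an unadjusted p under 0.05 (0.84% of all genes) and 0 called (0% of all genes). The range of the fitted changes was -0.51 to 0.38, from Ctss to Tapbpl, with standard errors of 0.11 to 0.63. The median of the endolysosomal genes was -0.49, and it turned to 0.77 without replicate 1 of male sedentary pain. Cd74 had 102, 219, 97.7 and 143 CPM in male active pain and Nlrc5 3.22, 5.22, 2.34 and 5.08 CPM, both within the span of male sedentary pain. In males none of the genes of the pathway lists passed in any of the 3 comparisons.

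A test of the sex difference itself used all 24 libraries. For sedentary pain against control 0 of 35 members passed (0% of 15103 genes), while 27 had the larger fitted change in females at an unadjusted p under 0.05 against 6.26% of all genes, and the median difference was 1.84 on the log2 scale. The largest was in H2-Eb1 (3.24 ± 1.03, adjusted p = 0.432). For active pain against control 0 passed and 0 had an unadjusted p under 0.05, against 0% and 2.03% of all genes. For active against sedentary pain 0 passed (0% of all genes), 32 were lower at an unadjusted p under 0.05 against 10.1% of all genes, and the median difference was -2.52; Tap1 had the largest (-3.67 ± 1.03, adjusted p = 0.228). The count in this last test was 26 without replicate 1 of female sedentary pain (3.4% of all genes were lower), 28 without replicate 1 of male sedentary pain (11.1%) and 12 with DESeq2 (0.742%). Within replicates 3 and 4 it was 29 (6.82% of all genes), and that of sedentary pain against control was 25 (6.99% of all genes higher).

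Between the controls of the sexes 0 of 35 members passed, against 2.83% of 15103 genes, and the groups were apart in 5 members, H2-T24, Canx, Pdia3, Psmb10 and Psme1, all lower in males, where 8.73% of all genes were. Of the 35 fitted changes of males against females, 33 were negative (52.6% over all genes) and the median was -0.58. H2-D1 (-1.13 ± 0.53, adjusted p = 0.329), B2m (-1.03 ± 0.49, adjusted p = 0.334) and Canx (-0.24 ± 0.10, adjusted p = 0.287) were lower at an unadjusted p under 0.05, as were 7.26% of all genes. The female controls spread more widely than the male controls: B2m ran over 81 to 300.0 CPM in females and 71.8 to 122 CPM in males, and Tap1 over 2.73 to 16.6 and 2.42 to 4.83 CPM. With replicates 3 and 4 alone, 8 members were lower in males, as were 3.48% of all genes. Of the class I like genes outside the members, 1 of 6 tested, H2-Q10, was lower in males (-5.67 ± 1.43, adjusted p = 0.0321).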

How the data were processed

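RNA of left gastrocnemius from 24 mice was sequenced after a stranded TruSeq preparation, per the labels' protocols. The deposited values are raw read counts per gene, 1 file per library; the submitters' processing notes name HISAT2 2.1.0, Salmon 0.9.1, featureCounts and DESeq2 1.24.0, with the builds mm10 and GRCm38.p6, in no stated order or role. Strand use in counting is not given in the sources used here. Gene names, exon lengths and overlaps came from GENCODE on GRCm38, and promoter letters from RefSeq (GRCm38.p6). Genes were filtered with filterByExpr (minimum count 10), scaled by TMM and tested with edgeR 4.0.16 (quasi-likelihood, robust; R 4.3.3), with Benjamini-Hochberg adjustment over all genes tested and a threshold of 0.05. The 12 libraries of a sex entered each comparison within a sex, and all 24 entered those between sexes. No 2 libraries were copies: the smallest chi-square per gene over 276 pairs was 9.067.

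The members, gene lists and tests were chosen with earlier results of these data known. Any of the 36 members may be named, with up to 3 genes of smallest p from each pathway list per comparison; other genes are named only where a result turns on them. Alternatives were DESeq2 1.42.0, its size factors, other low-count filters, other sets of samples in the fit, no robust step, a replicate block, library number as a batch, 1 surrogate variable (sva 3.50.0), mitochondrial genes left out, thinned libraries and each library left out. Fits corrected for GC content and length, and fits on replicates 1 and 2 or 3 and 4 only, were chosen after seeing the data. The result of 1 marker gene is not reported here.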

Additional observations from a re-analysis of the deposited data

Results flagged for a closer look

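In 11 of the 216 sets of 4 libraries (36 genes in 6 groups), or 5.09%, 1 library lay far from the other 3 for its group's range; chance flags about 1 set in 20. In replicate 1 of male sedentary pain, Lgmn had 226 CPM against 40.3 to 44.5 in the others, Ifi30 73.8 against 8.85 to 14.3, and Pdia3, a disulfide isomerase of class I loading, 175 against 55.4 to 62.0. This was also the library with the highest neutrophil marker sum, 292 CPM, whose part in these values was not tested. In replicate 1 of the male controls H2-Ab1 was low at 15.2 CPM against 27.4 to 29.9, Ctss was low at 4.51 against 6.09 to 6.20, and Erap1 was high at 22.4 against 20.3 to 20.6. In replicate 4 of the male controls H2-Q6 was low at 2.06 CPM against 7.38 to 7.75. In replicate 4 of the female controls Tapbpl was high at 9.11 CPM against 4 to 4.73, and Erap1 at 25.8 against 19.0 to 20.2. In female active pain Psmb8 was high in replicate 3 at 28.7 CPM against 12.7 to 15.3, and H2-DMa was low in replicate 2 at 3.99 against 8.62 to 9.49.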

How the results depend on the processing

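The 33 members higher in female sedentary pain ranged from 31 to 35 with 1 library left out, and the count was 15 within replicates 1 and 2 and 2 with 1 surrogate variable. The 31 lower in female active against sedentary pain ranged from 0 to 35 with 1 library left out. They were 0 with only the 2 groups fitted, 0 within replicates 1 and 2, 0 with 1 surrogate variable and 1 with no low-count filter. For these counts of 0 the share of all genes is not given here. Counts of 0 became 1 (female active pain), 10 (male sedentary pain), 9 (male active pain) and 12 (sex difference of active against sedentary pain) with DESeq2, and 1 in each of the first 3 with 1 surrogate variable (0.0345%, 0.0417% and 0.0417% of all genes higher). They became 25 and 29 (sex differences of sedentary pain against control and of active against sedentary pain) and 8 (male against female controls) within replicates 3 and 4, and the sex difference of active against sedentary pain ranged from 0 to 28 with 1 library left out.

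With 1 surrogate variable the median log2 fold changes in female sedentary pain were 0.23 for all members, -0.13 for class I chains, 0.23 for loading, 0.29 for the immunoproteasome, 0.29 for class II chains, 0.49 for editors and 1.73 for endolysosomal genes. In female active against sedentary pain they were 0.045, 0.23, -0.19, 0.043, 0.22, 0.020 and -0.59 in that order. In male sedentary pain they were 0.29 for loading, 0.52 for the immunoproteasome, 0.41 for editors and 0.91 for endolysosomal genes. In male active pain they were 0.71 for all members, 0.39 for loading, 0.67 for the immunoproteasome, 0.34 for editors and 0.89 for endolysosomal genes. Fitted signs turned with it, with the cause not tested. In female sedentary pain H2-K1 was -0.14, H2-D1 -0.15, H2-Q4 -0.16, H2-Q6 -0.12, H2-Q7 -0.24, H2-T22 -0.19 and Tap2 -0.36. In female active against sedentary pain H2-K1 was 0.36, H2-D1 0.22, H2-Q4 0.30, H2-Q7 0.28, H2-T22 0.18, H2-T23 0.032, H2-M3 0.25, Tap2 0.18, Tapbp 0.048, Psmb9 0.075, Psme1 0.11, Psme2 0.043, H2-Aa 0.19, H2-Ab1 0.24, H2-Eb1 0.24, Cd74 0.16, H2-DMa 0.19 and H2-DMb1 0.020.

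Within replicates 1 and 2 the female sedentary pain medians were 2.66 for class II chains and 2.36 for editors. Those of active against sedentary pain were -1.08 for all members, -0.74 for class I chains, -0.85 for loading, -1.20 for the immunoproteasome, -1.17 for class II chains and -1.47 for editors. Male active pain gave 1.26 for loading, 1.39 for editors and 2.54 for endolysosomal genes. Within replicates 3 and 4 male sedentary pain gave 0.44 for loading and 1.22 for endolysosomal genes, and male active pain 0.71 for all members, 0.37 for loading, 0.70 for the immunoproteasome, 0.34 for editors and 1.05 for endolysosomal genes. With 1 library left out the editors ranged from 2.83 to 4.27 in female sedentary pain (lowest without its replicate 4). Without replicate 1 of male sedentary pain, loading reached 0.40 of a range up to 0.96, endolysosomal genes 1.15 of a range up to 2.74, and the endolysosomal median of male active against sedentary pain 0.77 of a range down to -0.92.

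Replicate numbers name different mice. Residual correlations of same-numbered libraries ranged from -0.32 to 0.42 in females and -0.65 to 0.59 in males. With the replicate block 33 members were higher in female sedentary pain (16.1% of all genes) and 30 lower in active against sedentary pain (8.89% of all genes). The GC and length correction split all genes of active against sedentary pain into 660 higher and 1270 lower, and with the replicate block into 1539 and 1431, against 364 and 1366 without either.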
